A study of Homo sapiens with 32 samples.

Results

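The comparison described here set the high against the medium labeling population of a pooled knockout screen by CRISPR in the established human colon carcinoma line RKO. Its members were all libraries of these populations, which the sample labels name, where the medium population is called basal. They made up 16 of the 32 sequenced lane samples of the series, and the 4 lanes of each library were summed, which gave 4 of the 8 libraries. All cells stably expressed Kinprola PKA, a recorder of protein kinase A (PKA) activity, and Cas9, both introduced by lentivirus, and all carried sgRNAs of the HD CRISPR sublibrary A. On day 6 after transduction the cells were incubated for 30 min with the fluorescent HaloTag substrate CPY-CA. They were then sorted by CPY-CA fluorescence over that of EGFP, which is part of the recorder, into a high gate (around 25% of the cells), a medium gate (around 50%) and a low gate (around 25%). The 2 screens are numbered replicates 2 and 3, and each gave 1 library of each sorted population and 1 of the pool at day 0 (T0). The labels give the genotype of the cells as wild type, and name no further treatment.

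PKA is held inactive by its regulatory subunits until cAMP binds them and frees the catalytic subunits. Gs proteins raise cAMP through adenylyl cyclases, and phosphodiesterases break it down. In the recorder, a phosphorylated PKA substrate peptide is bound by a phosphopeptide-binding domain, which restores the activity of a split HaloTag, so that the enzyme then binds CPY-CA covalently. A knockout enriched in high over medium therefore had more cells at high label per EGFP relative to medium label, whatever the route. This alone does not show a shift of all its cells to more label, since some such knockouts were also more frequent in the low gate. The measured quantity was the number of sgRNA reads amplified from genomic DNA, which follows the number of cells of a knockout in a gate and not the amount of any RNA or protein. The guide sequences were not used here, so none is printed and the cut sites are not given.

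The high libraries held 31774397 reads in replicate 2 and 23369720 in replicate 3, and the medium libraries 30406448 and 25964569. The median sgRNA had 260 to 352 reads in these 4 libraries, and under 50 reads were found for 2.61% to 4.20% of them. Of 74987 sgRNAs in the library table, 74552 targeted 18638 genes, mostly with 4 each. Reads were scaled to the mean total of the libraries and turned into log2 values after 1 read was added. High minus medium was formed for every sgRNA within its screen, and the mean over a gene's sgRNAs was its log2 fold change. limma tested the 2 within-screen values against 0, with Benjamini-Hochberg adjustment over all entries of the library at a threshold of 0.05. With 2 screens, a gene's p-value rests largely on the spread of all genes together (4.62 prior degrees of freedom).

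Control sgRNAs gave the background of the comparison. The 278 sgRNAs without a target in the genome had mean log2 fold changes of −0.12 and −0.07 in replicates 2 and 3, and of 275 tested singly by edgeR none was enriched in the high gate and 3 were depleted. The 50 sgRNAs against the AAVS1 safe harbor locus had a mean of −0.02. By contrast, the 22 sgRNAs against EGFP, which is the denominator of the sorted ratio, gave 0.85 and 1.16, with a mean of 1.00 (SE 0.11, n = 2 screens, adjusted p = 0.018, limma). Tested singly by edgeR, 3 of 20 sgRNAs against EGFP were enriched and 0 were depleted, and their values had a standard deviation of 0.83. Knockouts of the recorder's own EGFP were thus more frequent in the high gate in both screens on average over these sgRNAs.

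Enrichment in the high gate was far more frequent than depletion. Of 18638 genes, 316 were higher in high than in medium (1.7%) and 18 were lower (0.0966%), so that 94.6% of the called genes were enriched. The enriched genes had log2 fold changes between 0.63 and 2.51, with a median of 1.04, and the depleted genes fell by 0.61 to 1.17 on the log2 scale. All called genes had the same sign in both screens. Over all genes the within-screen values of the 2 screens had a Pearson correlation of 0.47 and a Spearman correlation of 0.20, given as a description across genes, which are not independent replicates and share their libraries.

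**Figure D1:**
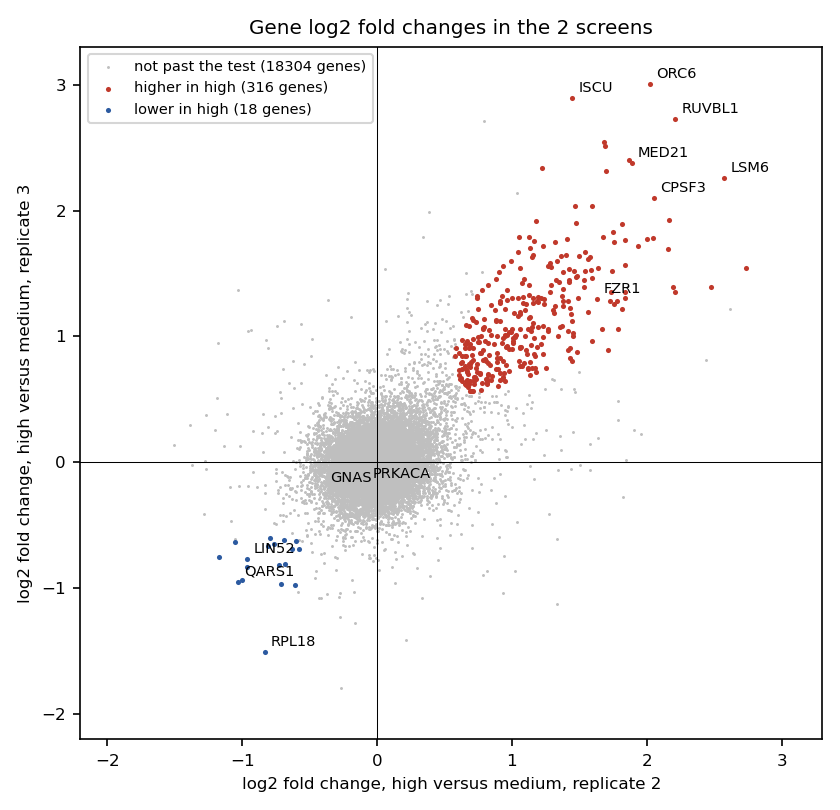
Log2 fold change of high versus medium for each of 18638 genes, in replicate 2 (horizontal axis) and replicate 3 (vertical axis). Red points are the 316 genes called higher and blue points the 18 called lower by limma, grey points did not pass, and the called genes lie at the far ends of the diagonal, with most of them on the high side.

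The called genes were mostly genes whose knockouts had become rare since T0. When the sorted populations were recombined by the size of their gates, the reads of 168 of the 316 enriched genes (53.2%) and of 10 of the 18 depleted genes (55.6%) lay at a log2 of −1 or lower against T0, against 570 of all genes (3.06%). This measure shares the high and medium libraries with the comparison and is given as a description. Such knockouts also had fewer reads, with medians of 134 reads per sgRNA in the medium libraries for the enriched genes and 122 for the depleted ones against 354 over all genes. Under 50 reads per sgRNA were left for 54 enriched and 5 depleted genes. The part of low read numbers in the calls was not tested beyond the alternative that dropped sgRNAs of under 50 reads.

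Another test took each sgRNA as a separate reagent. By edgeR (quasi-likelihood), 839 of 74339 sgRNAs against genes were enriched in the high gate (1.13%) and 84 were depleted (0.113%). For 228 genes (1.22%) 2 or more sgRNAs were enriched, and for 7 genes (0.0376%) 2 or more were depleted. Of the 316 enriched genes, 183 had at least 2 enriched sgRNAs and 63 had none. Of the 18 depleted genes, 2 had at least 2 depleted sgRNAs, namely *QARS1* and *LIN52*, and 12 had none.

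Genes of the core of the PKA pathway did not pass the test between medium and high. None of 16 genes for cAMP production and PKA catalytic subunits was called in either direction. Over all genes 1.7% were called higher and 0.0966% lower, so a list of this size need hold no call. The median log2 fold change of these 16 genes, −0.02, lay beside −0.01 over all genes. *PRKACA*, which encodes the main catalytic subunit, had summed reads over its 4 sgRNAs of 679 in medium and 561 in high in replicate 2, and of 731 and 642 in replicate 3. The high values were slightly below the medium values in both screens, and the gene's log2 fold change was −0.12 (SE 0.10, adjusted p = 0.752, limma). In the low gate the same sgRNAs had 1765 and 1966 reads. For *GNAS*, the Gs alpha subunit, high over medium was −0.30 on the log2 scale (SE 0.10, adjusted p = 0.4, limma) and for *ADCY7*, an adenylyl cyclase, it was −0.09 (SE 0.10, adjusted p = 0.831, limma). None of the 12 sgRNAs against these 3 genes passed edgeR between high and medium. In low versus medium, where the same medium libraries serve as the reference, the values were 1.48 for *PRKACA*, 1.01 for *GNAS* and 0.96 for *ADCY7*, and all passed limma.

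None of 23 genes for PKA regulatory subunits, PKA inhibitors and phosphodiesterases was called either. At the shares over all genes (1.7% higher and 0.0966% lower) such a list need hold no call. The gene with the highest value was *PRKAR1A*, the type I alpha regulatory subunit that restrains the catalytic subunits. Its sgRNAs had 1776 reads in medium and 2302 in high in replicate 2, and 1587 and 2569 in replicate 3, so the high gate held more of them in each screen. The log2 fold change of 0.50 did not pass (SE 0.12, adjusted p = 0.193, limma), and it passed when each screen was centred on the sgRNAs without a target (0.59, adjusted p = 0.0065, limma; 0.0532 to 0.515 with 1 library left out). Its sgRNA 1 was enriched on its own, from 447 to 888 reads in replicate 2 and from 409 to 859 in replicate 3 (adjusted p = 1.47e-08, edgeR), whereas the other 3 sgRNAs had adjusted p of 0.513 to 0.717. Among 13 genes for CREB, CRTC, SIK and EPAC effectors, *CREBBP*, a histone acetyltransferase that binds phosphorylated CREB, was the only one called, at 1.15 (SE 0.11, adjusted p = 0.0123, limma).

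*FZR1* encodes the coactivator of the anaphase promoting complex that is used late in mitosis and in G1, and lies at chr19:3506311-3538334 (GRCh38). Its 4 sgRNAs together had 117, 760 and 2426 reads in low, medium and high in replicate 2, and 116, 833 and 2164 in replicate 3. The reads rose at each step in both screens. High over medium gave a log2 change of 1.46 (SE 0.12, adjusted p = 0.00749, limma), and 3 of the 4 sgRNAs were enriched. The remaining one, sgRNA 2, went from 185 to 299 and from 116 to 233 reads (adjusted p = 0.163, edgeR). Of the 19 genes of the complex and its activators 4 were called, the others being the subunits *ANAPC10* (1.11), *CDC16* (1.05) and *CDC23* (0.64), and no member was lower. *CDC16* and *CDC23* rested on means of 13 and 49.2 reads per sgRNA in medium, and none of their sgRNAs passed edgeR.

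*TRIM33*, whose product adds ubiquitin to SMAD proteins (chr1:114392790-114511203, GRCh38), showed the same order. Its sgRNAs had 471, 701 and 1519 reads in low, medium and high in replicate 2, and 290, 587 and 1310 in replicate 3. The log2 fold change of high over medium was 1.12 (SE 0.10, adjusted p = 0.0092, limma). Of its sgRNAs, 1, 3 and 4 were enriched, at 1.20, 1.65 and 1.80 on the log2 scale in edgeR, and sgRNA 2 had −0.12 (adjusted p = 0.956, edgeR). Without the high library of replicate 3 the gene's value was 0.92 and did not pass, in a fit that also used the low libraries. *TRIM33* was the only called member of 18 genes for TRIM33, TRIM24 and SMAD signaling.

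The rRNA methyltransferase and large subunit assembly factor *NOP2*, 1 of 9 genes named whatever their values, was depleted in the high gate. It had 589 reads in medium and 356 in high in replicate 2, and 466 and 299 in replicate 3, a log2 change of −0.90 (SE 0.10, adjusted p = 0.0158, limma). Singly, only its sgRNA 1 was depleted (adjusted p = 0.0128, edgeR), and the others had adjusted p of 0.139 to 0.766 (edgeR). *PES1*, which joins the same assembly pathway, had −0.41 (SE 0.11, adjusted p = 0.256, limma). *DCAF1* (named VPRBP in the study), which brings substrates to the ubiquitin ligase CRL4, had −0.51 (SE 0.095, adjusted p = 0.0869, limma). It passed after centring (adjusted p = 0.0454, limma) and when the median of its sgRNAs was taken (adjusted p = 0.0126, limma), and under no other alternative (0.0787 to 0.915). In low versus medium these 3 genes had values of 0.90, 1.29 and 1.35, and all passed limma.

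**Figure D2:**
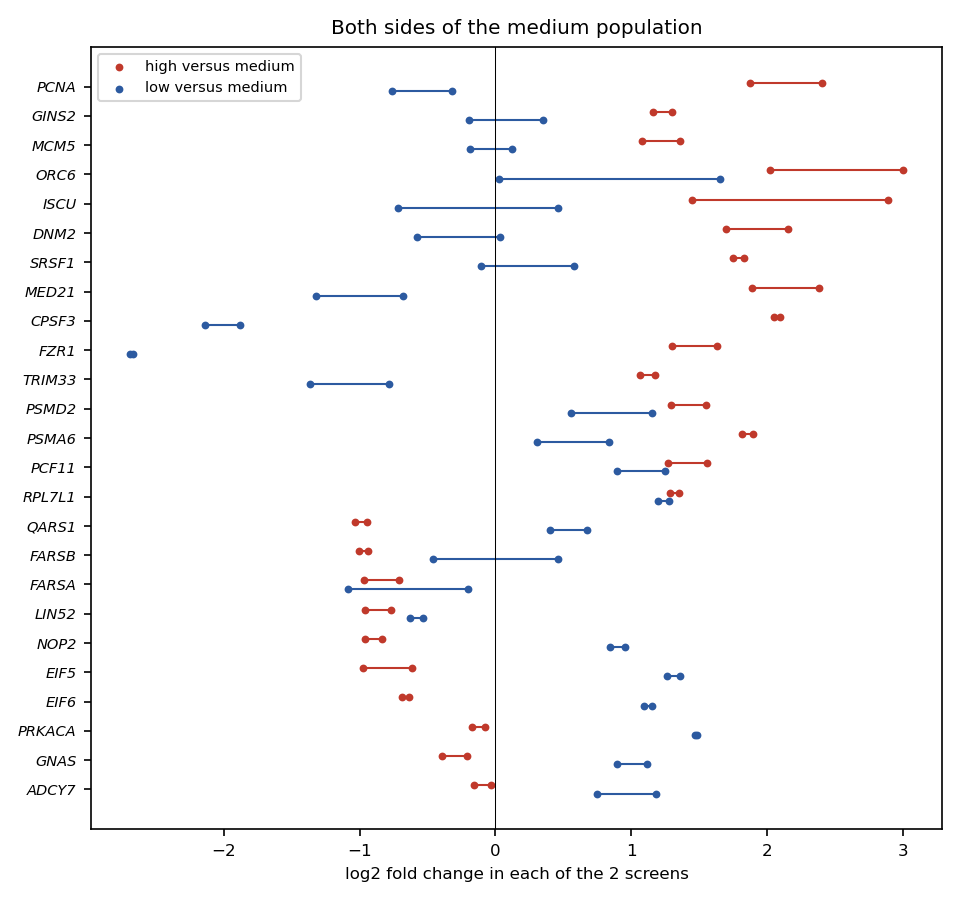
Log2 fold changes of high versus medium (red) and low versus medium (blue) for 25 genes; each point is 1 of the 2 screens and a line joins the 2 screens. Both comparisons use the same medium libraries, and *PRKACA* and *ADCY7* lie near 0 in red, *GNAS* lies at −0.39 and −0.21 in red, and all 3 lie above 0 in blue, whereas *PCNA*, *GINS2*, *MCM5* and *DNM2* lie above 0 in red.

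Splicing factors held the most enriched group. Sm and LSm proteins form the rings that bind the uridine-rich small nuclear RNAs of the spliceosome, and the LSm ring also binds mRNA ends during decay. Of 15 such genes, 10 were higher in the high gate and none was lower, with a median log2 fold change of 1.36 beside −0.01 over all genes. *LSM6* had 163 reads in medium and 737 in high in replicate 2, and 122 and 566 in replicate 3, so that both high values exceeded both medium values by several times. Its log2 fold change was 2.41 (SE 0.12, adjusted p = 0.00578, limma). *LSM7* (2.14), *LSM3* (1.94) and *SNRPG* (1.92) followed, and *SNRPG* rested on a mean of 10.3 reads per sgRNA in medium with none of its sgRNAs past edgeR. *LSM7* had 2.73 and 1.54 in replicates 2 and 3. It lost its call without high replicate 2, medium replicate 2 or medium replicate 3, and in both fits of 6 libraries. With sgRNAs of under 50 reads left out, 6 of these genes were called.

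The U4/U6.U5 tri-snRNP is the particle that brings the catalytic small nuclear RNAs to the spliceosome. Of 20 genes for it and its assembly, 12 were higher and none was lower, with a median of 1.03. *TXNL4A*, a U5 protein, had 324 reads in medium and 1360 in high in replicate 2, and 239 and 954 in replicate 3 (log2 fold change 2.11, SE 0.20, adjusted p = 0.0112, limma), and 3 of its 4 sgRNAs were enriched. With 1 library left out in turn, the fit also used the low libraries. The call of *TXNL4A* was then lost without high replicate 2 (1.90), high replicate 3 (2.33) and medium replicate 3 (1.25). *ECD*, which takes part in assembling this particle, rose by 1.89 with all 4 sgRNAs enriched. *PRPF31* and *USP39* rose by 1.55 and 1.53. Among 36 genes of the U1, U2, SF3 and PRP19 complexes 18 were higher and none was lower, at a median of 0.88. They included the helicases *DHX38* (1.78) and *AQR* (1.73) and both subunits of U2AF, which reads the 3′ splice site, *U2AF2* and *U2AF1* (1.53 each). *SRSF1*, a splicing activator outside these lists, had 206 and 733 reads in medium and high in replicate 2 and 219 and 457 in replicate 3 (1.79, SE 0.10, adjusted p = 0.00578, limma), although 1 of its sgRNAs alone was past edgeR.

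The machinery of RNA polymerase II formed another large block. Of 39 genes for the polymerase and its general factors 20 were higher and none was lower, with a median of 0.70. The subunits *POLR2F* (2.01) and *POLR2L* (1.63) and the initiation factors *GTF2B* (1.59) and *GTF2F2* (1.46) led them. Mediator links the polymerase to enhancer-bound factors, and 13 of 26 genes of its head, middle and tail were higher, none lower, with a median of 0.72. *MED21*, which joins the middle to the rest of the complex, had 163, 411 and 1599 reads in low, medium and high in replicate 2, and 141, 226 and 1247 in replicate 3. All 4 of its sgRNAs were enriched, and its log2 value of 2.13 (SE 0.14) passed with an adjusted p of 0.00578 (limma). *MED6* (1.47), *MED8* (1.43) and *MED4* (1.39) followed, and of the 6 genes of the Mediator kinase module *CCNC* (0.70) alone was called.

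SAGA is a coactivator with a histone acetyltransferase module and a deubiquitinase. Of its 19 genes 9 were higher and none was lower, at a median of 0.73. Without high replicate 3 the count was 5 and the median 0.50, and the other omissions of 1 library gave 8 to 10 calls. The members ranged from −0.32 for *TAF9* to 1.02 for *TADA2B*, and *TAF6L* (0.96), *TAF5L* (0.95), *SGF29* (0.94), *TADA3* (0.93) and *TADA1* (0.92) were among those called. The knockouts of *TADA2B*, *TAF6L*, *SGF29* and *TADA1* were abundant, with 298 to 319 reads per sgRNA in medium, and *SGF29*, which reads methylated histone H3, rose from 1223 to 2151 reads in replicate 2 and from 1329 to 2242 in replicate 3. Of 24 genes for transcription elongation 8 were higher, of which *ELL* (1.57), *SUPT16H* (1.56) and *SUPT5H* (1.55) rose most, and the kinase *CDK9* rose by 1.08. *BRF2*, an initiation factor of RNA polymerase III at small nuclear RNA promoters that stood in none of the lists, rose by 2.10 (SE 0.20, adjusted p = 0.0105, limma) with all 4 sgRNAs enriched.

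Genes that cap, cut and survey mRNA followed the same direction. *RNGTT*, the capping enzyme, rose by 1.75 (SE 0.15, adjusted p = 0.0092, limma), and of 10 genes for capping and cap binding *NCBP2* (1.02) and *PHAX* (0.76) were called beside it. *CPSF3*, the nuclease that cuts the 3′ ends of mRNA precursors, had 108, 343 and 1152 reads in low, medium and high in replicate 2, and 79, 266 and 875 in replicate 3. It thus rose at both steps by nearly the same amount, with a log2 fold change of 2.07 for high (SE 0.10, adjusted p = 0.00578, limma) and −2.01 for low. In all, 7 of 19 genes for 3′ end processing were higher and none was lower, with a median of 0.55. Of 17 genes for nonsense-mediated decay, which degrades mRNA with early stop codons, 6 were higher and none was lower, at a median of 0.34. *UPF2* (1.39), *SMG6* (1.36), *UPF1* (1.25) and *SMG1* (1.16) led this list, and *SMG6* knockouts had not become rare, with a log2 of −0.10 against T0.

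**Figure D3:**
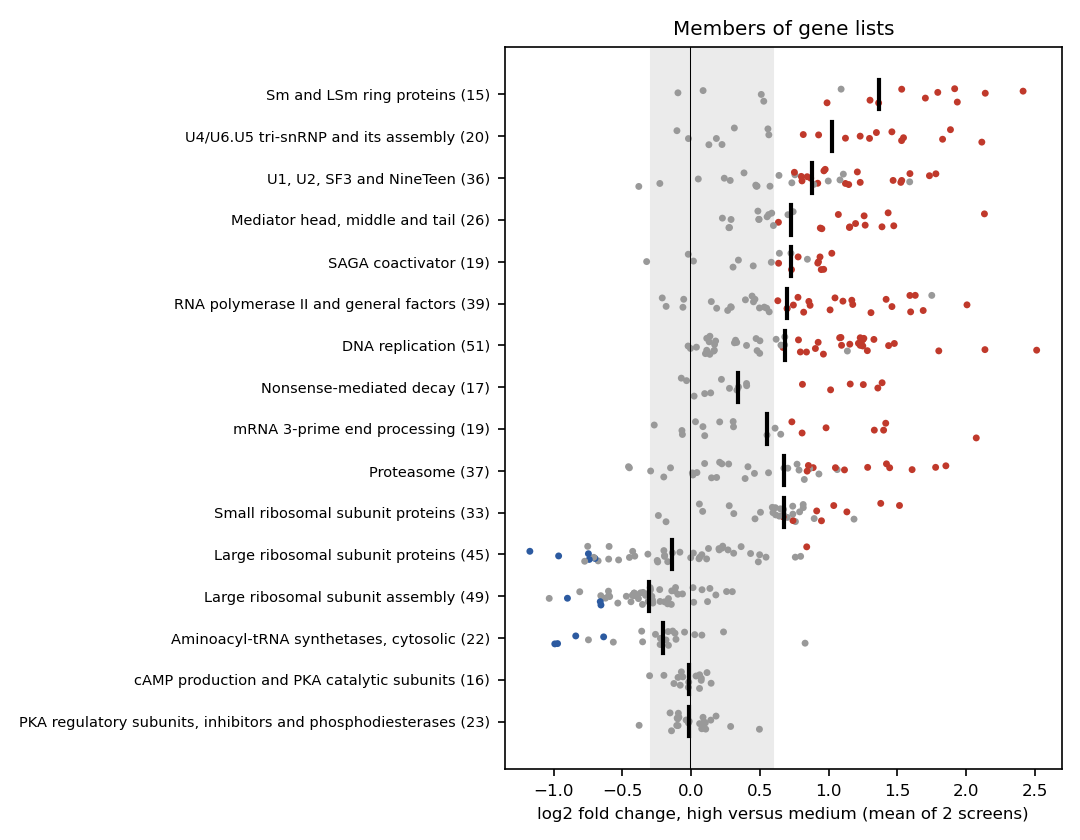
Log2 fold change of high versus medium for the members of 16 gene lists (number of members in parentheses); red points were called higher, blue points lower, and grey points did not pass limma. Short vertical lines are list medians, the thin line is the median of all genes and the grey band holds the middle 95% of them (−0.29 to 0.59); the splicing, transcription and replication lists lie to the right of the band's centre, and the lists of PKA genes lie around 0.

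DNA replication was the largest list by number of calls. Of 51 genes for origins, the replicative helicase and the fork, 25 were higher in the high gate and none was lower, with a median of 0.68. *PCNA*, the sliding clamp of the DNA polymerases (chr20:5114953-5126626, GRCh38), had 374 reads in medium and 1234 in high in replicate 2, and 178 and 930 in replicate 3. Its low reads were 209 and 179, so the low gate held fewer than the medium gate in replicate 2 and about as many in replicate 3, while the high gate held several times more in both. All 4 sgRNAs were enriched and the log2 fold change was 2.14 (SE 0.15, adjusted p = 0.00611, limma). *POLD3*, a subunit of DNA polymerase delta, rose by 1.80, the kinase *CDC7* that fires origins by 1.48, and the helicase component *CDC45* by 1.44.

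Of the 6 MCM subunits of the helicase ring and the 4 GINS proteins, 9 were called. *MCM2* (1.33), *MCM5* (1.22) and *MCM6* (1.09) and the GINS proteins *GINS3* (1.26), *GINS1* (1.25), *GINS4* (1.25) and *GINS2* (1.23), which complete the active helicase, were called with at least 3 enriched sgRNAs each. *MCM7* (0.96) and *MCM3* (0.92) were called with 1 and 2 enriched sgRNAs, and *MCM4* had 0.65 (adjusted p = 0.0523, limma). *MCM7* was also lower in low versus medium (−0.70). *MCM5* had 828 and 2048 reads in medium and high in replicate 2, and 768 and 1762 in replicate 3, while its low reads were 903 and 686. In low versus medium the values of the 7 genes with at least 3 enriched sgRNAs lay between −0.24 and 0.22, and none passed. The step from low to medium was tested against that from medium to high by high plus low minus 2 times medium. It gave 1.18 for *MCM5* (adjusted p = 0.151, limma) and 0.85 to 1.47 for the other 6 (adjusted p = 0.0975 to 0.242, limma). A change particular to the high side was thus not established. *ORC6*, a subunit of the origin recognition complex, had the largest value of all genes, 2.51 (SE 0.23, adjusted p = 0.01, limma). It rested on 110 and 313 summed reads in medium and high in replicate 2 and on 59 and 199 in replicate 3.

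Enzymes that make DNA precursors were called in part. Of 25 genes of the folate cycle and of deoxynucleotide synthesis 7 were higher and none was lower, at a median of 0.47. The dUTP hydrolase *DUT* rose by 1.30 and *GART*, a purine synthesis enzyme, by 1.21. Among 18 histone chaperones 6 were higher, including both large subunits of CAF-1, which places histones on new DNA, *CHAF1A* and *CHAF1B* (1.13 each). *CHD4*, a chromatin remodeler outside the lists, rose by 1.60 with all 4 sgRNAs enriched (SE 0.10, adjusted p = 0.00578, limma).

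Protein turnover and folding genes gave a mixed picture. Of 37 proteasome genes 11 were higher and none was lower, with a median of 0.68, but most had few reads. Leaving out sgRNAs with under 50 reads gave 8 calls and a median of 0.26, and leaving out high replicate 2 or medium replicate 2 gave a median of 0.39 in each case. The fit of 6 libraries with no replicate block called 4. *PFDN2*, a prefoldin subunit that hands actin and tubulin to the chaperonin, rose by 1.50 with all 4 sgRNAs enriched, and 5 of 15 genes for the TRiC chaperonin and prefoldin were higher (3 without high replicate 3). *PDRG1*, a relative of prefoldin outside the lists, rose by 1.76 (SE 0.09, adjusted p = 0.00578, limma), also with all 4 sgRNAs. *RUVBL1*, an ATPase that takes part in chromatin remodelers and in the assembly of large complexes, rose by 2.47 (SE 0.14, adjusted p = 0.00578, limma) at a mean of 14.3 reads per sgRNA in medium.

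The ribosomal subunits differed in their counts. Of 33 genes of the small subunit 8 were higher and none was lower, at a median of 0.67, and of 45 genes of the large subunit 1 was higher and 5 were lower, at a median of −0.14. With 1 library left out, 11 to 15 small subunit genes were higher, and in the large subunit 1 to 3 were higher and 1 to 5 lower. With sgRNAs of at least 50 reads, 18 of 29 small subunit genes were higher. *RPS7* (1.52), *RPS14* (1.38), *RPS6* (1.04) and *RPS3* (0.95) rose. *RPL18* had 172 reads in medium and 125 in high in replicate 2, and 113 and 101 in replicate 3, and its log2 fold change, averaged over sgRNAs of few reads, was −1.17 (SE 0.17, adjusted p = 0.0388, limma). It was −0.07 when sgRNAs of under 50 reads were left out, and did not pass. *RPL10* (−0.96), *RPL34* (−0.75), *RPL9* (−0.74) and *RPL27* (−0.70) were lower as well, and *RPL21* (0.84) was higher. None of the sgRNAs against these 6 large subunit genes passed edgeR, and their means of 4.39 to 49.1 reads per sgRNA in medium were low. When each screen was centred on the sgRNAs without a target, 26 small subunit genes were higher, and 6 large subunit genes were higher and 10 lower.

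Factors that assemble the large subunit went lower in part. Of 49 such genes 3 were lower and none was higher, with a median of −0.30. This count was 10 without medium replicate 2, 5 without high replicate 2, 8 with sgRNAs of at least 50 reads and 13 with the median over sgRNAs, and none was higher in these settings. *EIF6*, which keeps the large subunit from joining the small one too early, had 1149 reads in medium and 750 in high in replicate 2, and 1093 and 713 in replicate 3 (−0.66, SE 0.10, adjusted p = 0.037, limma). *WDR74* (−0.66) and *NOP2* were the others. In low versus medium, where 1.18% of all genes were higher and 1.54% lower, 42 of these 49 genes were higher and none was lower, with a median of 0.96. *ISG20L2*, a nuclease of large subunit maturation that was named for its sgRNAs, had 2 depleted sgRNAs in edgeR and a log2 change of −0.66 (SE 0.19, adjusted p = 0.303, limma). It passed without high replicate 2 (−0.92), without medium replicate 2 (−0.97) and with the median over sgRNAs (−0.61).

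Aminoacyl-tRNA synthetases were the second group on the depleted side. Of 22 cytosolic enzymes 4 were lower and none was higher, at a median of −0.20 beside −0.01 over all genes. None of 16 mitochondrial ones was called, which is near the shares over all genes (0.0966% lower and 1.7% higher). Among the cytosolic enzymes the count of lower genes was 1 without high replicate 3 or medium replicate 3. It was 2 without high replicate 2 and 6 without medium replicate 2, and their median then lay between −0.38 and −0.10. *QARS1*, the glutaminyl-tRNA synthetase (chr3:49095932-49105130, GRCh38), had 621 reads in medium and 295 in high in replicate 2, and 524 and 287 in replicate 3. Both high values were below both medium values, and the log2 fold change was −0.99 (SE 0.10, adjusted p = 0.0112, limma). All 4 of its sgRNAs fell in both screens, and sgRNA 1 (adjusted p = 0.000896, edgeR) and sgRNA 3 (adjusted p = 0.0264, edgeR) passed singly. *KARS1*, the lysyl-tRNA synthetase, went from 843 to 558 and from 849 to 536 reads (−0.64, SE 0.10, adjusted p = 0.046, limma).

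Phenylalanyl-tRNA synthetase is built from the products of *FARSA* and *FARSB*, and both genes were lower. *FARSB* had 305 reads in medium and 178 in high in replicate 2, and 304 and 180 in replicate 3 (−0.97, SE 0.10, adjusted p = 0.0119, limma). *FARSA* had 470 and 337, and 434 and 223 (−0.84, SE 0.11, adjusted p = 0.0275, limma). The values of low versus medium were 0.00 for *FARSB* and −0.65 for *FARSA*, and neither passed. The test of both sides gave −0.97 for *FARSB* (adjusted p = 0.35, limma) and −1.48 for *FARSA* (adjusted p = 0.196, limma). None of the 8 sgRNAs against these genes passed edgeR on its own, and without sgRNAs of under 50 reads *FARSB* had −0.47 and was no longer called. Without high replicate 2, high replicate 3 or medium replicate 3 neither gene passed, at −0.71, −1.23 and −0.76 for *FARSB* and −0.75, −0.93 and −0.55 for *FARSA*.

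Of the 18 depleted genes, *LIN52* had the most depleted sgRNAs, 3 of 4. Its product belongs to the MuvB core of the DREAM complex, which represses cell cycle genes in quiescent cells and acts with MYB proteins later in the cycle. The gene lies at chr14:74084956-74201493 (GRCh38). Its sgRNAs had 1261, 1898 and 1011 reads in low, medium and high in replicate 2, and 1255, 1808 and 1082 in replicate 3, so the medium gate held the most in both screens. High over medium gave −0.87 (SE 0.10, adjusted p = 0.021, limma) and low over medium −0.58 (adjusted p = 0.0215, limma). The sum over both sides was −1.45 (adjusted p = 0.0975, limma). sgRNAs 1, 2 and 3 were depleted at −0.99, −0.76 and −1.31 on the log2 scale in edgeR, and sgRNA 4 had −0.39 (adjusted p = 0.367, edgeR). *LIN54*, the DNA-binding subunit of the same core, was looked at after its values were seen. It had 2325 and 1863 reads in medium and high in replicate 2, and 2606 and 1595 in replicate 3, with 2 depleted sgRNAs and a gene value of −0.50 (SE 0.12, adjusted p = 0.181, limma).

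**Figure D4:**
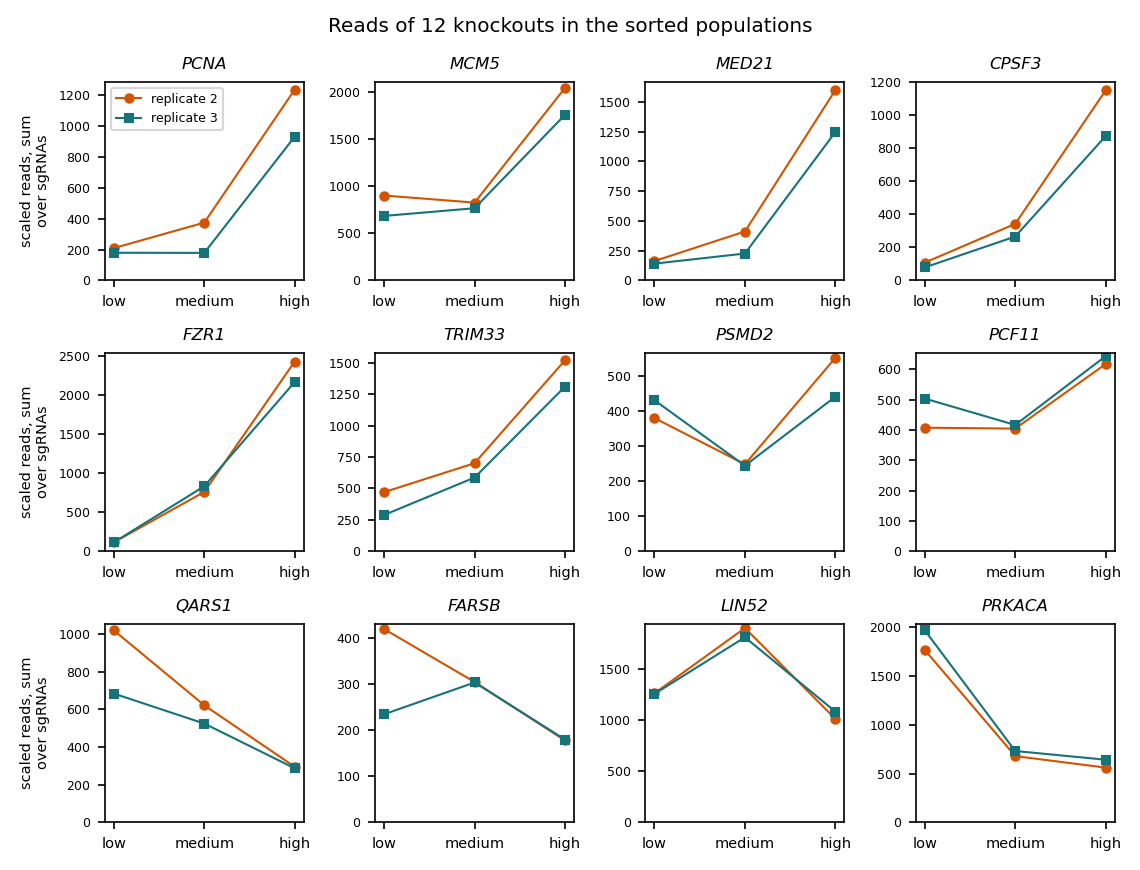
Scaled reads, summed over the sgRNAs of a gene, in the low, medium and high libraries of replicate 2 (circles) and replicate 3 (squares) for 12 knockouts; each panel has its own vertical axis from 0. *FZR1*, *TRIM33* and *CPSF3* rise at each step, *PCNA* and *MCM5* rise mainly from medium to high, *PSMD2* is lowest in medium, *LIN52* is highest in medium, and *PRKACA* falls from low to medium and changes little beyond it.

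Translation initiation factors went in both directions, with 3 of 36 higher and 1 lower. With 1 library left out, 2 to 6 were higher and 1 or 2 lower. *EIF4G2* (1.10), *EIF3I* (0.87) and *EIF3B* (0.75) were higher. *EIF5*, which triggers GTP hydrolysis on eIF2 at the start codon, had 886 reads in medium and 579 in high in replicate 2, and 791 and 459 in replicate 3 (−0.79, SE 0.12, adjusted p = 0.0459, limma). The kinase GCN2 (*EIF2AK4*) and its activator *GCN1*, which sense uncharged tRNA and stalled ribosomes in the integrated stress response, were the called members of 15 genes of that response. *EIF2AK4* rose from 1251 to 2151 reads in replicate 2 and from 1092 to 2311 in replicate 3 (1.06, SE 0.09, adjusted p = 0.00956, limma), and *GCN1* from 992 to 1820 and from 986 to 2075 (1.00, SE 0.10, adjusted p = 0.0112, limma). Neither knockout had become rare, with log2 values of 0.08 and −0.15 against T0. *ATF4*, the transcription factor downstream, had 0.24 (adjusted p = 0.517, limma).

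Metabolic genes gave few calls. *ISCU*, the scaffold on which mitochondrial iron-sulfur clusters are built, had 506 reads in medium and 1351 in high in replicate 2, and 416 and 1428 in replicate 3. Its log2 value of 2.17 (SE 0.32, adjusted p = 0.0391, limma) differed between the screens, at 1.45 and 2.89, and 1 sgRNA with no read in the medium library of replicate 3 added to the higher value. Of 24 genes for iron-sulfur cluster assembly *CIAO3* (0.70) was the other one called. *FECH*, which inserts iron into heme, rose by 1.13 with all 4 sgRNAs enriched (SE 0.10, adjusted p = 0.0092, limma) and was the only call among 14 heme synthesis genes. The glycolytic enzymes *PKM* (1.25), *ENO1* (0.82) and *PGAM1* (0.68) were the calls among 22 genes of glycolysis and glucose uptake. *DNM2*, the GTPase that pinches off endocytic vesicles and stood in none of the lists, had 260 and 859 reads in medium and high in replicate 2, and 241 and 747 in replicate 3 (1.93, SE 0.14, adjusted p = 0.00641, limma).

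Many lists held no call at all. Over all genes 1.7% were called higher and 0.0966% lower, so few calls are due in lists of these sizes. None of 42 genes of respiratory complex I, 75 mitochondrial ribosomal proteins, 52 small subunit assembly factors, 26 genes of the RAS-MAPK pathway, 24 SWI/SNF subunits, 14 genes of the p53 pathway or 36 genes of mTORC1 and its regulators was called in either direction. Their medians lay between −0.03 and 0.03. Under the alternatives, at most 3 genes of any of these lists were called. The 10 drug efflux ABC transporters, some of which export dyes, held no call either (1 after centring), with a median of −0.02. Among them *ABCC1* had the highest value, 0.51 (SE 0.099, adjusted p = 0.0995, limma), with 0.58 and 0.44 in replicates 2 and 3. In low versus medium *ABCC1* was called lower, at −0.996 (adjusted p = 0.00372, limma), and no other member of the list was called there.

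Whether the step from low to medium differed from the step from medium to high was tested for each gene. The value tested was high plus low minus 2 times medium, formed within each screen. This value is 0 where both steps are equal in size and run the same way along the gates. It was above 0 for 7 genes at an adjusted p under 0.05 in limma (0.0376%), and below 0 for none, against 818 and 461 genes at an unadjusted p under 0.05. Of the 7, 5 were also called in high versus medium, namely *PSMD2*, *PSMA1* and *PSMA6* of the proteasome, *PCF11*, a factor that ends transcription at 3′ ends, and *RPL7L1*, which takes part in making the large ribosomal subunit. *PSMD2*, a subunit of the regulatory particle, had 381, 249 and 553 reads in low, medium and high in replicate 2, and 432, 245 and 442 in replicate 3. Both outer gates held more than the medium gate in both screens, with log2 fold changes of 1.42 for high and 0.85 for low and a sum of 2.28 (SE 0.18, adjusted p = 0.0304, limma).

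The other genes of this pattern rested on sgRNAs of few reads. *PSMA6* sgRNA 2 had no read in either medium library and 17 and 11 in the high ones, and *PCF11* sgRNA 1 had none in medium and 12 and 19 in high. Of the sgRNAs against the 5 genes, 1 against *PSMD2* was enriched in edgeR and no other. Without sgRNAs of under 50 reads on average over the 6 sorted libraries, the sum over both sides was 1.47 for *PSMD2* (adjusted p = 0.0147, limma), on 2 sgRNAs with 58 to 173 reads in medium. It no longer passed for *PSMA6* (0.60), *PCF11* (0.69) and *RPL7L1* (0.86). In high versus medium alone, *PSMD2* then had 0.75, *PSMA6* 0.48 and *RPL7L1* −0.34, and none of these 3 passed, whereas *PCF11* (0.55) did. For *PSMA1* 1 sgRNA was left, with 43 and 38 reads in medium, which reached the mean of 50 through the outer gates, so this alternative is no check of its low medium reads. *EIF5B*, which joins the ribosomal subunits, and *RPL10A* had no step on the high side, with log2 fold changes of 0.10 and −0.00, and rose in low versus medium by 2.34 and 2.75. No depleted gene and no replication or splicing gene passed this test.

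Several depleted genes rested on weak evidence. *ERMP1*, a membrane metallopeptidase (−0.85, SE 0.13, adjusted p = 0.0453, limma), had more reads in high than in medium for 1 of its 4 sgRNAs in both screens, and its value came from sgRNA 2, with 10 and 4 reads in medium, and sgRNA 3. The transcription factors *ZFAT* (−0.77) and *FOSB* (−0.61) and *POLR1F*, a subunit of RNA polymerase I (−0.71), had no depleted sgRNA in edgeR. *ARIH1*, a ubiquitin ligase that works with cullins, had 2 depleted sgRNAs but a gene value of −0.53 that did not pass (SE 0.13, adjusted p = 0.222, limma).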

How the data were processed

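The authors counted sgRNA reads with MAGeCK, named in the submitters' processing notes, and deposited 1 table with the raw count of each sgRNA in each sequencing lane. No aligner and no build are named in the sources, and neither is needed to count sgRNAs. The lanes of a library were summed, since their chi-square over its degrees of freedom was 1.02 to 1.03 (5.76 to 7.34 between screens), and each library counted as 1 sample. A further 4 columns of the table match no sample of the series and were not used.

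Gene values came from scaled counts plus 1 read, as log2 differences within a screen, averaged over sgRNAs. limma 3.58.1 in R 4.3.3 (lmFit, eBayes) was run on high minus medium, low minus medium, and high plus low minus 2 times medium over 18659 entries, and calls were counted over the 18638 genes at an FDR under 0.05. sgRNAs were tested by edgeR 4.0.16 (quasi-likelihood, TMM, 6 sorted libraries, screen as a block, at least 10 reads in at least 2 libraries), and alternatives used DESeq2 1.42.0. Both tests were tried on simulated data. Where 1 library was left out, gene values came from another fit than the within-screen differences. It fitted population and screen to all remaining sorted libraries, so the low libraries also entered these high versus medium values. The study's methods do not name the scaling or the added read, and its removal of core-essential genes was not applied. Values against T0 used sorted reads weighted by 0.25 for high, 0.5 for medium and 0.25 for low.

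The study states that the screen was run in 2 independent rounds, so taking differences within a screen pairs the libraries by design. Deviations of same-numbered libraries from their group means had correlations of 0.13 (high with medium), 0.09 (high with low) and 0.13 (medium with low). The labels number the screens but do not describe separate cultures. The p-values thus rest on the spread between these 2 screens, which limma took largely from all genes together. Reads were amplified by PCR without molecular identifiers, so counting error alone understates the error.

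GENCODE 44 (GRCh38) named 18585 of the 18638 Ensembl identifiers, and figures were drawn with Python 3.11.15. Genes named were the 15 highest and 15 lowest called genes with at least 3 sgRNAs and 50 reads in medium (genes with at least 2 depleted sgRNAs filled the lower side), genes called on both high versus medium and the sum of both sides, 9 genes of the PKA pathway and the study's follow-up, and at most 4 members of a list, called ones first. Some further members were named after their values were seen. The values of 1 gene that the rule names are not reported here. The members and gene lists were chosen with earlier results of these data known, so a list's counts are a description and no independent evidence.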

Additional observations from a re-analysis of the deposited data

Results flagged for a closer look

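The step from low to medium and the step from medium to high differed for 7 genes. The test was of the difference itself, high plus low minus 2 times medium in limma. The values on the log2 scale were 2.74 for *RPL10A*, 2.56 for *RPL7L1*, 2.49 for *PCF11*, 2.44 for *EIF5B*, 2.43 for *PSMA6*, 2.31 for *PSMA1* and 2.28 for *PSMD2* (adjusted p = 0.0304 for each). All 7 had means of 8.13 to 102.8 reads per sgRNA in the medium libraries, beside a median of 354 over all genes. The part of these low read numbers was not tested beyond leaving out sgRNAs of under 50 reads, after which *PSMD2* and *EIF5B* still passed on 2 and 3 sgRNAs, *PSMA6*, *PCF11* and *RPL7L1* did not, and *RPL10A* had no sgRNA left. *PSMA1* was left with 1 sgRNA, which had 43 and 38 reads in medium and was kept by its reads in the outer gates, so its low reads stay unchecked. Of the sgRNAs left for *EIF5B*, 1 had 36 reads in a medium library.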

How the results depend on the processing

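Against 316 genes higher and 18 lower, centring on the sgRNAs without a target gave 868 and 51 and the median over sgRNAs 602 and 71. The other alternatives gave 257 to 418 higher and 13 to 25 lower, among them 257 and 13 with no replicate block and 388 and 18 for 6 libraries with the replicate block. Leaving out 1 high or medium library gave 278 to 405 genes higher and 18 to 51 lower. For sgRNAs, 839 enriched and 84 depleted became 473 and 20 with DESeq2, 586 and 33 with no replicate block, and 383 to 496 and 35 to 67 when 1 library was left out. The sum of both sides called 7 genes above and 0 below 0. It called 113 and 13 after centring, 74 and 8 with a pseudocount of 5, 76 and 10 with sgRNAs of at least 50 reads, 209 and 32 with the median, 4 and 0 with the replicate block, 2 and 0 without it, and 20 to 83 and 1 to 15 with 1 library left out. The cause of these shifts was not tested.

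Signs turned for 4 genes near 0 or of few reads. *RPL10A* had 0.00018 with TMM, 0.089 after centring, 0.21 with a pseudocount of 5, 0.56 with the median, and −0.27 to 0.26 with 1 library left out. *EIF5B* had −0.29 with sgRNAs of at least 50 reads, −0.13 with the median and −0.17 to 0.37 with 1 library left out. *RPL7L1* had −0.34 with sgRNAs of at least 50 reads, and *ADCY7* had −0.27 to 0.078 with 1 library left out. Of the 118 called genes named, 23, 26, 13 and 16 lost the call without high replicate 2, high replicate 3, medium replicate 2 and medium replicate 3. Those that lost it under 1 of these or more include *TRIM33*, *TXNL4A*, *LSM7*, *FARSA*, *FARSB*, *KARS1*, *EIF5*, *EIF6*, *WDR74*, *SGF29*, *GPN1*, *GPN2*, *ITGAV* and the large subunit genes. By contrast, *FZR1*, *PCNA*, *MED21*, *CPSF3*, *QARS1*, *NOP2* and *LIN52* passed under all alternatives run. The other changes of single calls numbered 0 with DESeq2 size factors or TMM, 5 with a pseudocount of 5, 14 with the replicate block and 34 without it. With sgRNAs of at least 50 reads, 10 of 112 called genes lost the call. The rest of the 118 had no value in that setting. Centring lost none and gained *DCAF1* and *PRKAR1A*. The median over sgRNAs lost *RPL27* and *ZFAT* and gained *ARIH1*, *DCAF1*, *ISG20L2* and *LIN54*. *ISG20L2* was also gained without high replicate 2, and *ISG20L2* and *ARIH1* without medium replicate 2. Single sgRNAs with under 50 reads limit the precision of these values.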

Other observations

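Other enriched genes that stood in none of the lists were picked after their values were seen, from the genes called in high versus medium. They are described without a test of any group.

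Subunits of the kinase complex that makes phosphatidylinositol 4-phosphate at the plasma membrane were among them. *PI4KA*, the kinase, had 788 reads in medium and 1642 in high in replicate 2, and 640 and 1479 in replicate 3, with all 4 sgRNAs enriched and a log2 change of 1.24 (SE 0.10, adjusted p = 0.00715, limma). Its partners *TTC7A* (1.18) and *HYCC2* (1.39) were called as well. A further set takes part in assembling RNA polymerases and in the prefoldin-like complex. *URI1* had 934 and 2358 reads in medium and high in replicate 2, and 871 and 2362 in replicate 3 (1.43, SE 0.09, adjusted p = 0.00578, limma). *UXT* (1.18), *RPAP2* (1.42), *RPAP3* (1.27) and the GTPases *GPN1* (1.01), *GPN2* (0.67) and *GPN3* (1.13) were called too. *GPN1* lost its call without high replicate 3 or medium replicate 2, and *GPN2* without high replicate 3. With no replicate block, *GPN1* and *RPAP2* were not called. The cell adhesion genes *ITGB5* (0.98), *ITGAV* (0.76) and *TLN1* (0.92), of which the first 2 encode the subunits of an integrin and *TLN1* the adaptor that activates integrins, were also higher in the high gate in both screens. *ITGAV* lost its call without high replicate 2. With no replicate block, *ITGB5*, *ITGAV* and *TLN1* were not called.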
